A study of Mus musculus with 6 samples.

Results

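Collagen crosslinking and hydroxylation enzymes are a set of 10 genes, namely the lysyl oxidases Lox, Loxl1, Loxl2, Loxl3 and Loxl4, the lysyl hydroxylases Plod1, Plod2 and Plod3, and the catalytic subunits P4ha1 and P4ha2 of the prolyl 4-hydroxylases. They were followed by gene symbol in an array study of primary lung fibroblasts, and 8 of the 10 were measured, out of 22180 genes tested in all. Each of the 8 had 1 probe set annotated with its symbol alone. Loxl2 had 2 probe sets and Plod3 had 1 that the annotation also assigns to another gene, and no value is given for either.

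The fibroblasts came from lungs of adult mice of mixed strain and carried UBCCreERT2 and R26RSmoM2. UBCCreERT2 is a Cre recombinase that is active in the presence of 4-hydroxytamoxifen (4OHT) and is driven by the ubiquitin C promoter, which is broadly active. R26RSmoM2 is an allele, switched on by Cre, that encodes SmoM2, a mutant of the hedgehog signal transducer Smoothened that signals without ligand. 3 wells received vehicle and 3 received 1 µg/ml 4OHT for 48 h, and each well gave 1 array. Wells of both groups carried both alleles, so the drug, the activity of Cre and the activated allele differed together between the groups and cannot be told apart. According to the labels, freshly isolated cells were divided among the wells. The labels do not say whether more than 1 animal was used, so the p-values measure only the spread between these wells, which may be technical.

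Collagen chains are hydroxylated on proline and lysine in the endoplasmic reticulum while they are made. Prolyl 4-hydroxylation stabilizes the triple helix, and lysyl hydroxylation, above all that of the telopeptides by the product of Plod2, sets which crosslinks can form later. Outside the cell the lysyl oxidases, copper enzymes that oxidize lysine and hydroxylysine, start the covalent crosslinks of collagen and elastin, and in the lung these crosslinks help to set the stiffness of the matrix that fibroblasts lay down. The hydroxylases need iron, ascorbate, oxygen and 2-oxoglutarate, and several genes of both families are textbook targets of the hypoxia-inducible factors.

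Of the 8 enzymes measured, 1 fell, 1 rose and 6 did not pass. Loxl3 was 1.48-fold lower in 4OHT wells and Loxl4 was 1.15-fold higher, while Lox, Plod1, P4ha1 and P4ha2 had 95% intervals that included no change. Loxl1 and Plod2 were lower in every 4OHT well than in any vehicle well, by 0.15 in log2 units in both cases, and did not pass an adjusted p under 0.05. Values are log2 expression of a probe set, and a log2 change is 4OHT minus vehicle. Over all genes tested, 12.0% passed, 5.38% higher and 6.62% lower, and with 8 enzymes a count of 2 says little about the set. The 8 had a median log2 change of -0.04, beside -0.01 for all genes tested. In 5 of the 8 the groups did not overlap, as they did not in 32.7% of all genes tested. The calls among the 8 numbered 1 in each fit that omitted 1 of the 6 arrays, since Loxl4 no longer passed.

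**Figure D1:**
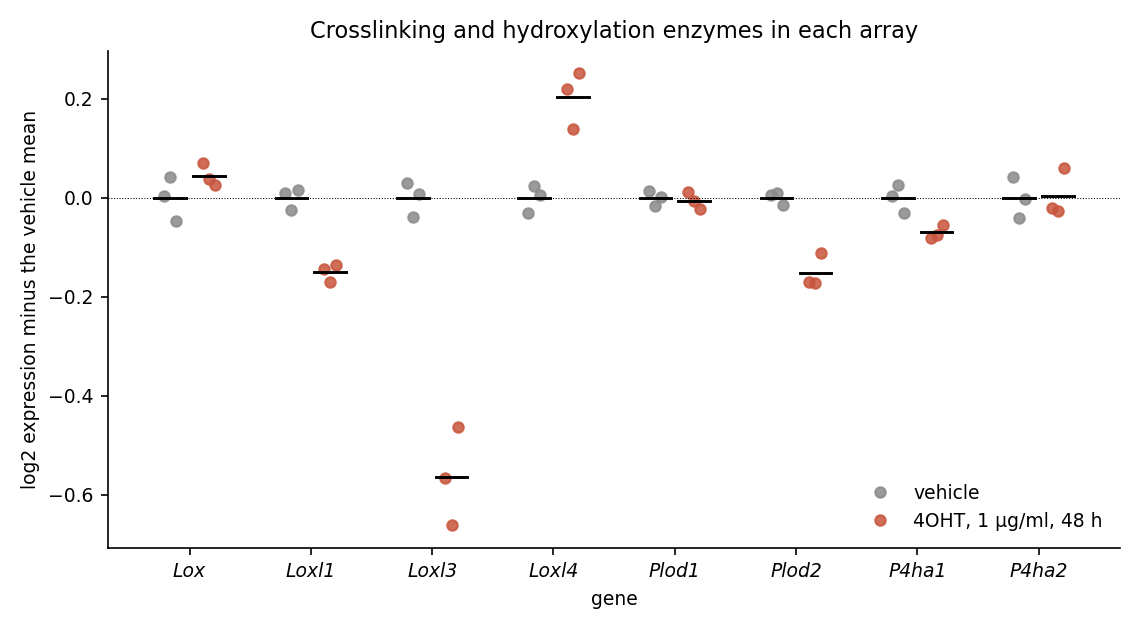
Log2 expression of the 8 measured enzymes in each array, less the mean of the 3 vehicle arrays of that gene (y axis, log2 units); points are arrays, grey for vehicle and red for 1 µg/ml 4OHT at 48 h, and black bars are group means (n = 3). Loxl3 lies 0.56 lower and Loxl4 0.20 higher in 4OHT wells, and the points of Lox, Plod1 and P4ha2 overlap between groups.

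Among the lysyl oxidases the fall of Loxl3 was the largest change. Loxl3 encodes a lysyl oxidase of the scavenger receptor domain group, which acts on several collagens and is needed for development of the palate and spine. Its log2 expression was 12.25, 12.18 and 12.23 in the vehicle wells and 11.65, 11.56 and 11.76 in the 4OHT wells. The groups were 0.42 apart at their nearest, more than the range within vehicle wells (0.07) or within 4OHT wells (0.20). The log2 change was -0.56 (SE 0.061, 95% interval -0.71 to -0.42, n = 3 against 3), with an adjusted p of 0.00233 from limma with Benjamini-Hochberg adjustment. Only 2.37% of all genes tested had a log2 change of greater size. The call held with each of the 6 arrays omitted in turn, with adjusted p-values from 0.00393 to 0.0141.

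Loxl4, a lysyl oxidase with the same kind of scavenger receptor domains, moved the other way. Its log2 expression was 10.01, 10.07 and 10.05 in the vehicle wells and 10.26, 10.18 and 10.29 in the 4OHT wells. All 3 4OHT wells were above the vehicle wells, but the gap of 0.12 was about as wide as the range of the 4OHT wells themselves (0.11). The log2 change was 0.20 (SE 0.048, 95% interval 0.09 to 0.32, adjusted p = 0.0394). Leaving out any 1 of the 6 arrays ended the call, at adjusted p-values of 0.0616 (4OHT replicate 2 left out) to 0.120 (4OHT replicate 1 left out), as did fitting every probe set of the array (adjusted p = 0.0976). Within each array, the difference of Loxl3 minus Loxl4 was 2.18 ± 0.06 in vehicle wells and 1.41 ± 0.05 after 4OHT (SD, n = 3). It was 0.77 log2 units smaller after 4OHT, which restates the opposite changes of both genes. The size of that difference within a group has no meaning of its own, since signals of different probe sets are not comparable.

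Lox, the founding lysyl oxidase and a main crosslinking enzyme of collagen and elastin, was level. It had a log2 expression of 14.08, 14.12 and 14.03 in the vehicle wells and 14.14, 14.11 and 14.10 in the 4OHT wells. The groups overlapped, and the log2 change was 0.04 (95% interval -0.06 to 0.15, adjusted p = 0.593), which spans 0.958-fold to 1.11-fold. These signals lay close to the highest values on the arrays, which ranged from 14.46 to 14.55, and the part of compression near that limit was not tested. Loxl1, whose product crosslinks elastin with the help of fibulin-5, had values of 13.43, 13.40 and 13.44 in vehicle wells and 13.28, 13.25 and 13.29 in 4OHT wells. Every 4OHT well lay below every vehicle well, with a gap of 0.11 against a range of 0.04 within each group. Its log2 change was -0.15 (SE 0.041, 95% interval -0.25 to -0.05, adjusted p = 0.0613).

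Neither of the measured lysyl hydroxylases passed. Plod2, the telopeptide lysyl hydroxylase whose product favours the stable pyridinoline crosslinks found in fibrotic tissue, had values of 13.61, 13.61 and 13.59 in vehicle wells and 13.43, 13.43 and 13.49 in 4OHT wells. The groups stood 0.10 apart. The log2 change was -0.15 (SE 0.042, 95% interval -0.25 to -0.05, adjusted p = 0.0658). Plod1, which hydroxylates lysines of the triple helix, had values of 11.88, 11.86 and 11.87 in vehicle wells and 11.88, 11.86 and 11.85 in 4OHT wells. The groups overlapped almost completely, and the log2 change was -0.01 (95% interval -0.10 to 0.09, adjusted p = 0.944), a span of 0.932-fold to 1.06-fold. Loxl1 and Plod2 did pass under 3 of 14 alternatives. They passed among genes above the median level (adjusted p = 0.0106 for Loxl1 and 0.0121 for Plod2), with a trended and robust spread (0.000648 and 0.000812) and with array weights (0.0496 and 0.0414), with both lower each time. Those fits also called a larger share of all the genes they covered than the main fit did.

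The prolyl 4-hydroxylases P4ha1 and P4ha2 did not pass. P4ha1, the catalytic subunit of the main form in most cells, had values of 13.18, 13.20 and 13.14 in vehicle wells and 13.09, 13.10 and 13.12 in 4OHT wells. The groups did not overlap, but the gap of 0.03 was smaller than the range within vehicle wells (0.06). The log2 change was -0.07 (95% interval -0.17 to 0.03, adjusted p = 0.340). P4ha2, an alternative catalytic subunit prominent in cartilage and bone, had values of 11.06, 10.98 and 11.02 in vehicle wells and 11.00, 10.99 and 11.08 in 4OHT wells. Its groups overlapped, with a log2 change of 0.00 (95% interval -0.11 to 0.12, adjusted p = 0.967).

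P4ha3, the remaining catalytic subunit, did fall. It was not among the 10 enzymes but stood in a list of 25 other genes of collagen modification and assembly, 23 of them measured. P4ha3 had values of 12.66, 12.66 and 12.65 in vehicle wells and 12.32, 12.25 and 12.34 in 4OHT wells, with no overlap. The log2 change was -0.35 (SE 0.045, adjusted p = 0.00436), or 1.28-fold lower, and it passed in every fit that omitted 1 array (adjusted p from 0.0109 to 0.0249). P4hb, the protein disulfide isomerase that serves all of these catalytic subunits as their partner, had a log2 change of -0.10 (adjusted p = 0.187). Within each array P4ha3 minus P4ha2 was 1.64 ± 0.04 in vehicle wells and 1.28 ± 0.04 after 4OHT (SD, n = 3).

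Of those 23 other genes, 9 fell and none rose, 39.1% against the 12.0% called over all genes tested, and the median log2 change was -0.12. The 12.0% covers dim genes too, while 21 of the 23 lay above the median level. A fit of only the genes above that level called 12 of the 21, all lower, beside 3884 of all 11090. Adamts3 and Adamts14 encode proteases that remove the amino-terminal propeptides of fibrillar procollagens. Adamts3 was 1.57-fold lower (log2 change -0.65, SE 0.077, adjusted p = 0.00338) and Adamts14 was 1.38-fold lower (log2 change -0.47, SE 0.062, adjusted p = 0.00507). Adamts14 has 2 probe sets, and their mean gave a log2 change of -0.26 (adjusted p = 0.0204). Creb3l1, a transcription factor gene of the secretory pathway that drives collagen production in bone, fell by 0.25 in log2 units (adjusted p = 0.0123). The others that fell by this test were Tll1, a protease of the carboxy-terminal propeptides, Pcolce2, an enhancer of such proteases, and Crtap, P3h4 and Fkbp14, which act on collagen in the endoplasmic reticulum, by between 0.21 and 0.24 in log2 units. The collagen chaperone gene Serpinh1 (log2 change -0.16, adjusted p = 0.107) and the galactosyltransferase gene Colgalt1, whose product glycosylates hydroxylysine (0.06, adjusted p = 0.461), did not pass. The count of 9 dropped to 5, 3 and 4 once vehicle array 1, 2 or 3 was omitted, and to 4 once 4OHT array 1 or 2 was. Adamts3, Adamts14 and P4ha3 passed without any of the 6 arrays, and Creb3l1 did not pass without vehicle replicate 2 (adjusted p = 0.0550) or with the replicate number as a block (0.0501).

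**Figure D2:**
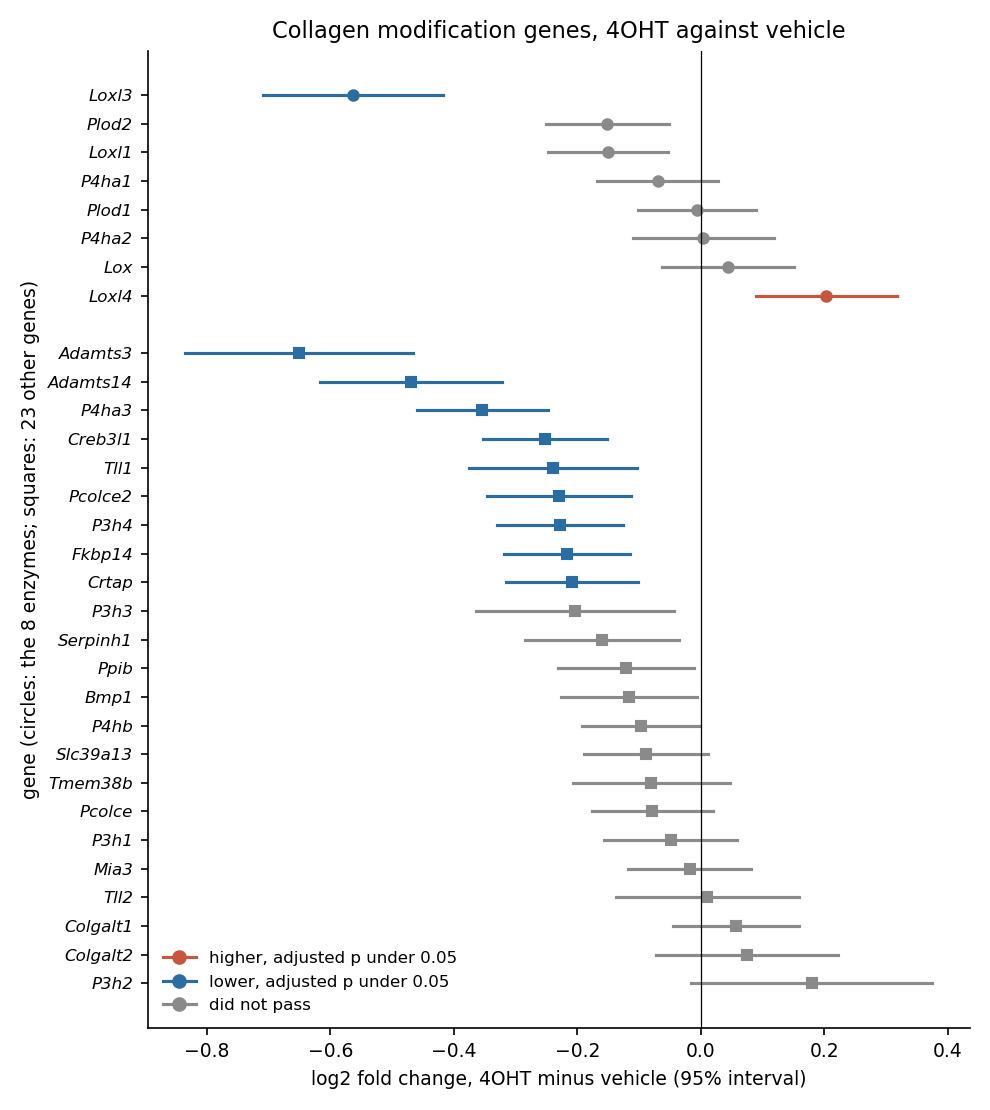
Log2 fold changes, 4OHT minus vehicle, with 95% intervals from limma (x axis) for the 8 measured enzymes (circles, upper block) and 23 other genes of collagen modification and assembly (squares, lower block); red and blue mark genes higher and lower at an adjusted p under 0.05, and grey marks genes that did not pass. Loxl3 at -0.56 stands apart from the other enzymes, and 19 of the 23 other genes lie below 0, and 9 of the 23 passed.

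Genes of the collagens and matrix proteins that these enzymes act on or bind formed another list. Of 19 measured substrates and binding partners, 7 fell and none rose (36.8% against 12.0% over all genes tested), with a median log2 change of -0.13, and between 5 and 7 passed without any 1 of the 6 arrays. Of the 19, 18 lay above the median level. The fit of only such genes called 11 of the 18 (10 lower and 1 higher), beside 3884 of all 11090. Fmod, which encodes fibromodulin, a proteoglycan that binds lysyl oxidase and collagen, fell by 0.49 in log2 units (SE 0.049, adjusted p = 0.00165). Ltbp4, an elastic fibre gene, fell by 0.39 (adjusted p = 0.00196), Postn, the gene of the matricellular protein periostin, by 0.33 (adjusted p = 0.00542) and Col4a1, a basement membrane collagen chain gene, by 0.29 (adjusted p = 0.00573). Among fibrillar collagen genes, Col3a1 fell by 0.29 (adjusted p = 0.00936) and Col11a1 fell by 0.26 (adjusted p = 0.0241). The type I collagen genes Col1a1 and Col1a2, the most abundant substrates of the enzymes in connective tissue, had log2 changes of -0.03 (adjusted p = 0.688) and -0.08 (adjusted p = 0.285). Eln, the elastin gene, had one of -0.10 (adjusted p = 0.189) and Fbln5, the fibulin-5 gene, one of -0.13 (adjusted p = 0.0858).

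Genes that supply the enzymes' cofactors were measured next. Of 11 genes for the transport of copper, ascorbate and iron or the synthesis of ascorbate, 2 rose and none fell, where 5.38% of all genes tested were higher, with a median log2 change of 0.03. Tfrc, the transferrin receptor gene, which brings iron into cells, had values of 8.28, 8.41 and 8.45 in vehicle wells and 8.92, 8.86 and 8.89 in 4OHT wells, a rise of 1.42-fold (log2 change 0.51, SE 0.058, adjusted p = 0.00282). Slc11a2, an iron transporter gene, rose 1.16-fold (adjusted p = 0.0374), but did not pass once vehicle array 1, 2 or 3 or 4OHT array 1, 2 or 3 was omitted (adjusted p from 0.0554 to 0.129). The iron exporter gene Slc40a1 had a log2 change of 0.39 with a wide spread between vehicle wells (SD 0.29, adjusted p = 0.126), and passed without vehicle replicate 3 (adjusted p = 0.0440). For copper, Atp7a, which encodes the pump that loads lysyl oxidases in the secretory pathway, had a log2 change of 0.13 (adjusted p = 0.214) and the uptake gene Slc31a1 one of 0.03 (adjusted p = 0.725). The ascorbate transporter gene Slc23a2 had one of 0.05 (adjusted p = 0.696).

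Hypoxia-inducible genes outside the enzymes were compared because P4ha1, P4ha2, Plod2 and Lox are textbook members of that response. Of 14 such genes measured, 5 rose and none fell, where 5.38% of all genes tested were higher, with a median log2 change of 0.12. All 14 lay above the median level, and the fit of only such genes had 7 of them higher, beside 1750 of all 11090. Adm, the gene of the vasodilator peptide adrenomedullin, had values of 10.52, 10.48 and 10.63 in vehicle wells and 11.14, 11.22 and 11.39 in 4OHT wells, or 1.63-fold higher (log2 change 0.71, SE 0.078, adjusted p = 0.00247). Bnip3, a mitophagy receptor gene, rose by 0.37 (adjusted p = 0.00803), the histone demethylase gene Kdm3a by 0.31 (adjusted p = 0.00476), Egln3, a prolyl hydroxylase gene whose product marks the hypoxia-inducible factors for destruction, by 0.20 (adjusted p = 0.0221), and the Myc antagonist gene Mxi1 by 0.22 (adjusted p = 0.0294). Others of the same response did not pass, among them Vegfa (log2 change 0.08, adjusted p = 0.266), the glycolytic gene Pgk1 (0.04, adjusted p = 0.650) and the carbonic anhydrase gene Car9 (-0.33, adjusted p = 0.0510). Car9 did pass as lower once 4OHT array 3 was omitted (adjusted p = 0.0380). None of P4ha1, P4ha2, Plod2 or Lox rose. The count of 5 dropped to 3 once vehicle array 1 or 2 or 4OHT array 1 or 2 was omitted. Egln3 (adjusted p from 0.0505 to 0.0776) and Mxi1 (0.0535 to 0.110) did not pass with any 1 of the 6 arrays omitted. Mxi1 has 2 probe sets, and in the fit on the mean of probe sets 4 of the 5 calls remained.

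The hypoxia-inducible factors bind short elements whose core is ACGTG or the variant GCGTG, and these letters were searched in promoters of the enzymes. RefSeq promoter windows of GRCm38.p6, 300 bases long with 250 before and 50 after a start site, matched 4 of the 8 measured enzymes, Loxl4, Plod1, P4ha1 and P4ha2. Those of P4ha1 and P4ha2 are shown because both are textbook hypoxia targets that did not rise here, and that of Loxl4 because it is the 1 measured enzyme that did. Bases before the first annotated base of the gene are printed, which for P4ha1 lies ahead of the start site of the window and leaves 151 bases in place of 250. They run 5′ to 3′ on the strand of the gene, with ACGTG, the variant GCGTG and their reverse complements in capitals.
P4ha1 promoter, chr10:59323046-59323196, strand +: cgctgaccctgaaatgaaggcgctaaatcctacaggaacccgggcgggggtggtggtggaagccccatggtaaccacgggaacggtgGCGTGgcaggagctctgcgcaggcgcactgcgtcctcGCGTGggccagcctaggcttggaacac
P4ha2 promoter, chr11:54100674-54100923, strand +: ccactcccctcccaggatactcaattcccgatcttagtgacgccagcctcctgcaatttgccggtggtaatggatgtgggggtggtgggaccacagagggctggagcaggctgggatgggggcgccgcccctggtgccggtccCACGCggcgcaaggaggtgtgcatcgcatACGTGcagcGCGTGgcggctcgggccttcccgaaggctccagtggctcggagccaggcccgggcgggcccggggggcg
Loxl4 promoter, chr19:42612807-42613056, strand -: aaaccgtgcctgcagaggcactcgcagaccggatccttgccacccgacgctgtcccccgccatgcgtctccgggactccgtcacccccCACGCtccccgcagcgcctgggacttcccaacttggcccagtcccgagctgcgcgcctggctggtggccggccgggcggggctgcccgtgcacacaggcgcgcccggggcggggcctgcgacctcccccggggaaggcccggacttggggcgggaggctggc
The printed part of the P4ha2 promoter holds ACGTG once, at -78 from the start site, and GCGTG once on each strand. A further ACGTG of P4ha2, at 10 past the start site, lies outside the printed part. That of P4ha1 holds GCGTG at -163 and -126 from its start site, and ACGTG on the opposite strand at -16, nearer the start site, lies outside the printed part. Loxl4 has 1 match in its window, a GCGTG on the opposite strand, and Plod1 has 2 matches of GCGTG. All 4 windows of 300 bases held GCGTG, and those of P4ha1 and P4ha2 also held ACGTG. Over all 32851 windows of 300 bases, on both strands, 19.6% held ACGTG, 32.4% held GCGTG and 43.8% held either. In the bases before the gene, G and C made up 76.0% for Loxl4, 61.6% for Plod1, 65.6% for P4ha1 and 70.0% for P4ha2. The 32851 windows were not matched for this content, so these shares do not measure an excess of matches. A match is a description of the letters and does not show that a factor binds there.

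TGF-beta induces many of the enzymes in fibroblasts, and other targets of it went both ways. Of 10 measured, 3 fell and 1 rose (40% against 12.0% over all genes tested), with a median log2 change of -0.13. All 10 lay above the median level, and the fit of only such genes called 6 of them, beside 3884 of all 11090. Ltbp2, a latent TGF-beta binding protein gene, fell by 0.36 in log2 units (adjusted p = 0.00279), the feedback inhibitor gene Smad7 by 0.26 (adjusted p = 0.0275) and the matricellular gene Ccn1 by 0.17 (adjusted p = 0.0454), while Tgfbi rose by 0.29 (adjusted p = 0.0295). Acta2, the smooth muscle actin gene of myofibroblasts, had a log2 change of -0.14 (adjusted p = 0.0774), and Ctgf one of -0.04 (adjusted p = 0.579). The count of 4 dropped to 1 once vehicle array 1 or 2 or 4OHT array 1 or 2 was omitted, and to 2 once array 3 of either group was. Ltbp2 passed each time.

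**Figure D3:**
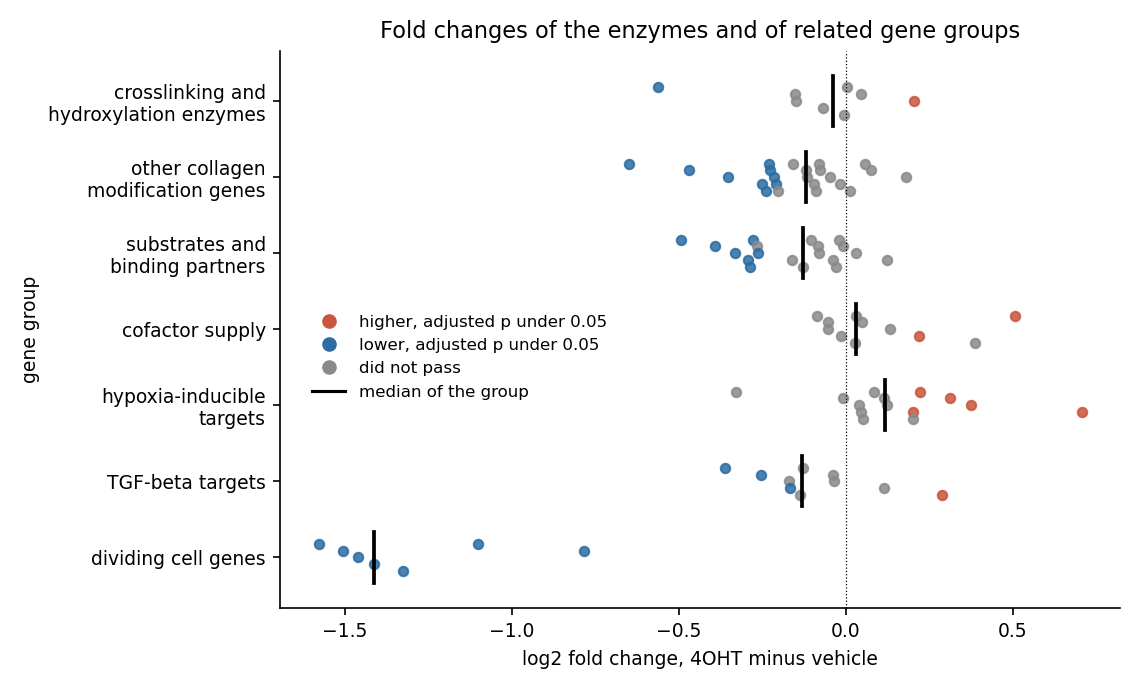
Log2 fold changes, 4OHT minus vehicle (x axis), of each measured gene in the enzymes and 6 related groups (y axis); points are genes, red and blue for higher and lower at an adjusted p under 0.05 and grey for those that did not pass, and black bars are group medians. The enzymes have a median of -0.04, hypoxia-inducible targets one of 0.12 and dividing cell genes one of -1.41.

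The genes whose profiles over the 6 arrays were nearest to those of Loxl3 and Loxl4 were found among 17294 genes. Left out were the enzymes, genes with provisional names, small RNA genes, and olfactory and vomeronasal receptor genes. Nearness was the smallest root mean squared difference after each profile was centred on its own mean. For Loxl3 they were Cenpq, a centromere protein gene (difference 0.029, log2 change -0.59), Abcc9, a regulatory subunit gene of potassium channels (0.029, -0.56), and Gins4, a replicative helicase gene (0.034, -0.53). For Loxl4 they were Ctsll3 (0.016, log2 change 0.22), Prdm9, a meiotic histone methyltransferase gene (0.019, 0.20), and Crebl2 (0.021, 0.19). Prdm9 did not pass (adjusted p = 0.0669 from limma). These likenesses rest on 6 arrays that differ mainly by group.

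The labelled cell type was checked against markers. Beside the calls that follow, 5.38% of all genes tested were higher and 6.62% were lower. The 9 fibroblast markers had mean log2 values between 9.41 and 14.14 in vehicle wells, with Vim, Dcn, Pdgfrb and Pdgfra between 11.37 and 14.14. Of the 9, Fap, a cell surface protease gene, fell by 0.62 (adjusted p = 0.00105), S100a4, a calcium-binding protein gene, fell by 0.42 (adjusted p = 0.00860), and none rose. The mean over the 9 was 11.40 to 11.45 in vehicle wells and 11.25 to 11.26 in 4OHT wells. The mean over 6 smooth muscle and pericyte markers was 12.32 to 12.34 in vehicle wells and 11.89 to 11.95 in 4OHT wells, and 4 of the 6 fell, with Rgs5 lower by 1.19. All 7 measured dividing cell genes fell, with log2 changes of -1.58 for Ccna2, -1.51 for Plk1, -1.46 for Mki67 and -1.41 for Bub1, and their mean was 9.77 to 9.82 in vehicle wells and 8.41 to 8.53 in 4OHT wells. The mean over 5 endothelial markers was 6.97 to 7.04 in vehicle wells and 6.81 to 6.85 in 4OHT wells. Of these, Cdh5 fell by 0.95 and Pecam1 fell by 0.36, Kdr rose by 0.21 (adjusted p = 0.0494), and the median log2 change was 0.07. The mean over 6 epithelial markers was 6.52 to 6.55 against 6.45 to 6.50, and of these Krt8 fell by 0.33 while Epcam, Cdh1, Sftpc, Scgb1a1 and Nkx2-1 did not pass. The group means overlapped for 6 leukocyte markers, of which Cd68 rose by 0.48 (adjusted p = 0.00140) and Lyz2 fell by 0.24 (adjusted p = 0.0374), and for 4 mesothelial markers. The mesothelial genes Upk3b and Msln, with vehicle means of 13.10 and 12.12, fell by 0.41 and rose by 0.30. No marker is at 0, since the scale of these arrays has no zero. The median over all genes tested was 7.44 to 7.47 in the 6 arrays, and the endothelial, leukocyte and epithelial means lay below it. Of their members, Lyz2 (10.27), Krt8 (10.14), Cd68 (8.71), Cdh5 (8.21) and Kdr (7.49) had vehicle means above it, and the others lay below. Signals of different probe sets are not comparable, so these levels do not show whether such cells were present. Fewer cells of a type and less RNA per cell cannot be told apart in such bulk samples, and the part of these shifts in the fall of Loxl3 was not tested.

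The arrays were alike within a group, with Pearson's r across 22180 genes, which are not independent replicates, from 0.997 to 0.998 within groups and from 0.995 to 0.996 between them. No pair of arrays was identical. Of all genes tested, 1193 were higher and 1469 lower, a balance that turned with the arrays centred on their medians (1406 higher and 1288 lower) and was near even after a second quantile normalization (1378 and 1404). The total of 2662 dropped to 1585 or 1336 once vehicle array 1 or 2 was omitted, and to 1473 or 1220 once 4OHT array 1 or 2 was. Precision is limited by the 3 arrays in each group.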

How the data were processed

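Expression was measured on single-colour Affymetrix arrays in 3 vehicle and 3 4OHT wells. The deposited values are log2 expression per probe set, made by the authors with oligo and RMA, with limma also named, per the submitters' processing notes, which give no versions. RMA equalizes the distributions of the arrays, so a shift of all genes one way would be removed, and it compresses fold changes of dim probe sets. No source used here names a genome build for the array values, and the promoter windows are of GRCm38.p6.

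Of 41345 probe sets, 23521 had 1 gene symbol, 1814 several and 16010 none, in the platform's annotation. The probe set with the highest mean over all arrays stood for a gene, which left 22180 genes, with no filter on dim ones. The comparison used limma 3.58.1 in R 4.3.3 (lmFit and eBayes, two-sided, 6.70 degrees of freedom) with Benjamini-Hochberg adjustment over all genes tested and a threshold of 0.05. The fit was tested on simulated data. The enzymes and lists were chosen with earlier results of these data known. The text names the 10 enzymes, up to 4 genes of smallest p from each of 6 lists, and the 3 nearest profiles of Loxl3 and Loxl4. Other list members, and marker genes, were named after their values were seen. Lists are described by counts and medians, without a set test.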

Additional observations from a re-analysis of the deposited data

How the results depend on the processing

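Loxl3 stayed lower and passed under all 14 alternatives (adjusted p from 6.8e-06 to 0.0141), and Lox, Plod1, P4ha1 and P4ha2 passed under none. Loxl4 stayed higher and passed under 6 of 14. Plod1, near 0 throughout, changed sign with the arrays centred on their medians (log2 change 0.015) and with a second quantile normalization (0.027). With 1 array left out, Plod1 lay between -0.015 and 0.0024 and P4ha2 between -0.024 and 0.026. The count of the 8 enzymes called was 2, and became 1 with the replicate block, with all probe sets fitted and at an adjusted p under 0.01. It was also 1 in each fit that left out 1 array. It became 4 with genes above the median level, with the trended and robust spread and with array weights. Those fits called more of all genes too, 3884 of 11090, 4123 of 22180 and 3212 of 22180 in turn, where the main fit called 2662 of 22180.

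With the replicate number as a block, 1568 of all genes were called in place of 2662, with 3 other collagen modification genes in place of 9, 1 cofactor supply gene in place of 2, 3 hypoxia-inducible targets in place of 5 and 1 TGF-beta target in place of 4. Deviations of same-numbered wells from their group means correlated at 0.06, -0.02 and 0.04. Wells of unlike number correlated at -0.08 to 0.03, and not every well correlated best with its own number. Values this small from 3 wells per group cannot settle whether the numbers pair the wells. With all probe sets fitted, the counts were 4 other collagen modification genes, 1 cofactor supply gene, 3 hypoxia-inducible targets and 1 TGF-beta target. Among genes above the median level, 3884 of 11090 genes were called. So were 12 of 21 other collagen modification genes (all lower) and 11 of 18 substrates and partners (10 lower and 1 higher). The same fit called 8 of 14 hypoxia-inducible targets (7 higher and 1 lower) and 6 of 10 TGF-beta targets (5 lower and 1 higher). The trended and robust spread called 4123 genes in all, 14 other collagen modification genes, 14 substrates and partners (13 lower and 1 higher) and 8 hypoxia-inducible targets (7 higher and 1 lower). The mean of probe sets gave 4 hypoxia-inducible targets higher and 1 lower, and array weights 5 and 1. At an adjusted p under 0.01, 1010 genes were called. Leaving out 1 array gave 1220 to 2326 genes in all, 3 to 9 other collagen modification genes, 1 to 2 cofactor supply genes, 3 to 4 hypoxia-inducible targets and 1 to 2 TGF-beta targets. The fits without 1 array have fewer samples, and the cause of the other shifts was not tested.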
